A study of Arabidopsis thaliana with 9 samples.

Results

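The genes described here are 126 nuclear genes of Arabidopsis thaliana whose RNA was high in albino seedlings of the 2cpab mutant and close to the wild-type level in green seedlings of the same mutant. They were taken from 32548 nuclear genes among the 32833 genes listed. A gene was taken when its albino mean exceeded the wild-type mean by at least 1.5 on the log2 scale, its green mean lay within 0.5 of the wild-type mean, every albino library exceeded every green and wild-type library, and its albino mean was at least 2.5. Members were thus chosen by the albino, green and wild-type values of all libraries, and those values are given below as a description, without a test. Of the 126, 123 are protein-coding, 2 are microRNA loci and 1 is another noncoding RNA. The label "raised in albino seedlings only" holds for the means by construction, but 1 of the green libraries ran above the wild type for most of these genes, as described below.

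Poly(A) RNA of whole seedlings was sequenced in 9 libraries, 3 in each of 3 groups: albino seedlings of the 2cpab mutant, green seedlings of that mutant, and the wild type Col-0. All were 6 days old and had grown under constant illumination at 125 µE m-2 s-1 with MS medium supplemented with 0.5% sucrose. The name of the mutant refers to 2CPA and 2CPB, which encode the 2-Cys peroxiredoxins of the chloroplast, enzymes that remove peroxides with electrons from thioredoxin-type proteins. How seedlings were pooled into a library is not given in the sources used here. The labels do not say that replicates were separate cultures, so the spread between libraries may be technical. Levels are given as FPKM scaled by the authors, with 1 value per library in the order of replicates 1 to 3, and differences are on the scale of log2(scaled FPKM + 1), which understates the change of weakly expressed genes. Total reads were not used here, so the depth behind a value is unknown.

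As background, an albino seedling lives on stored reserves and on supplied sugar, and its cells hold plastids without a working photosynthetic apparatus. Plants answer loss of plastid function, reactive oxygen, wounding and water deficit with overlapping sets of nuclear genes. Among them are abscisic acid signalling genes, glutathione transferases that couple reactive compounds to glutathione, defence lectins and protease inhibitors, and enzymes of the waxy and suberised surface layers. Whole seedlings mix cotyledon, hypocotyl and root, so a higher share of RNA from 1 cell type and more RNA per cell cannot be told apart.

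The promoters of 3 genes are printed first because each holds at least 3 separate copies of ACGTG, the core letters of abscisic acid response elements. They were picked by that count, and the share of tested genes with as many copies was not counted. The window was the 300 bases before the annotated gene start, read from the TAIR10.1 genome with RefSeq gene starts, and letters were searched on both strands. Sequences run 5′ to 3′ on the gene's strand, and capitals mark ACGTG or its reverse complement CACGT, which together form the palindrome CACGTG (the G box) where they overlap.
AFP3 (chr3:11384146-11384445, minus strand): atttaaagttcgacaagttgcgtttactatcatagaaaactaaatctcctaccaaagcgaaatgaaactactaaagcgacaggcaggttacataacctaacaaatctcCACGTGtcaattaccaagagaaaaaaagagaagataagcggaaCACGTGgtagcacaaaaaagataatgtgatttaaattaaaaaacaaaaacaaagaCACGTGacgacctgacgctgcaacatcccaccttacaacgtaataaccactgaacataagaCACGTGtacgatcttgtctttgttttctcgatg
PYL7 (chr4:446678-446977, plus strand): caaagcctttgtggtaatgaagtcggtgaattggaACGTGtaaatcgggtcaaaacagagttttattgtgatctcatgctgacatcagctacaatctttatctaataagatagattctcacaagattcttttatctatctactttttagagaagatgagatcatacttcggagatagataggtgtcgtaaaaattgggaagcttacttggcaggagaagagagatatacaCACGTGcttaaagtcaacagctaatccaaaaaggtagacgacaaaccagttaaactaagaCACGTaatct
AT5G16010 (chr5:5227447-5227746, plus strand): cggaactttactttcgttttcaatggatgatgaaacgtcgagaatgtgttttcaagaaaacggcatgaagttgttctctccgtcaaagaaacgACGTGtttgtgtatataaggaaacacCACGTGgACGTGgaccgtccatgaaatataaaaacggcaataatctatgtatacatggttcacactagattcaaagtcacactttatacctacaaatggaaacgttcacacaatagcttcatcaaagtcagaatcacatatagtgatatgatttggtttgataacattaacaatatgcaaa
AFP3, a binding partner of the abscisic acid factor ABI5, carried 4 separate runs, all of them CACGTG. PYL7, an abscisic acid receptor, and AT5G16010, a steroid dehydrogenase-like protein, carried 3 separate runs each.

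Across the group, ACGTG occurred in 49 of the 123 promoters of protein-coding members, or 39.8%, against 26.7% of the promoters of 19035 tested nuclear protein-coding genes and 25.6% of 27444 in all. At least 2 separate runs occurred in 10.6% of the members' promoters and 6.55% of those of tested genes. The longer forms were not more frequent. The G box CACGTG was in 8.13% of members and 8.31% of tested genes, and ACGTGGC or ACGTGTC in 5.69% and 8.18%. By role, the core was in 10 of 17 promoters of immunity and cell death genes, 6 of 11 of transcription factors and 4 of 8 of abscisic acid and osmotic stress genes, but in 2 of 12 of glutathione, detoxification and redox genes. It was also in 3 of 6 of glycosidases, proteases and acyltransferases. Lectins, cell wall and glycine-rich proteins, and amino acid, nitrogen and carbon metabolism had it in 3 of 7 each. Transporters had it in 3 of 8, wax, cutin, suberin and lipid genes in 5 of 17, and other or unknown genes in 6 of 19. The W box core TTGAC, the letters bound by WRKY factors, was in 52.8% of members and 50.3% of tested genes. The dehydration element core CCGAC was in 13.8% and 15%, the TGACG core of TGA factors in 22% of both, the GCC box GCCGCC of ethylene response factors in 0.813% and 2.39%, and the GTAC core in 45.5% and 40.3%. The mitochondrial dysfunction motif, the element bound by NAC factors of that response, was in 4 members' promoters (3.25%) and in 1.09% of those of tested genes. The evening element AAATATCT was in 4.07% and 5.78%, TATAAA in 58.5% and 51.9%, and the heat shock element in 0 of 123 members and 0.504% of tested genes. Members' promoters had a median of 30.7% G and C against 31.3% for tested genes. A match describes the letters of the window and is not a measured binding site, and these shares were not tested.

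The selection can be followed step by step. Of the 32548 nuclear genes, 355 (1.09%) were higher by at least 1.5 in albino seedlings. Of these, 178 were also more than 0.5 higher in green seedlings, 5 were more than 0.5 lower there, and 172 lay within 0.5. Requiring every albino library above every other library left 167, where 21.6% of 19624 tested nuclear genes had that order, and the albino mean of at least 2.5 left 130. A further 4 were left out by the rule itself. They were RNS1, a secreted ribonuclease, at 3.67, the copper/zinc superoxide dismutases CSD1 at 2.37 and CSD2 at 1.79, and AT4G14090, an anthocyanin glucosyltransferase, at 1.68. The mirror image of the rule, genes lower in albino seedlings only, held 426 genes. The members nearest the threshold were AT5G13900 at 1.503, AT3G45680 at 1.51 and TIP2;3 at 1.51, and the genes just outside it were AT4G19700 with 1.4996, Tic20-IV with 1.4995 and PRN with 1.4947. At the upper edge of the green window, MYB59 had 0.4999, and AT1G76590, just outside, 0.5016.

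**Figure D1:**
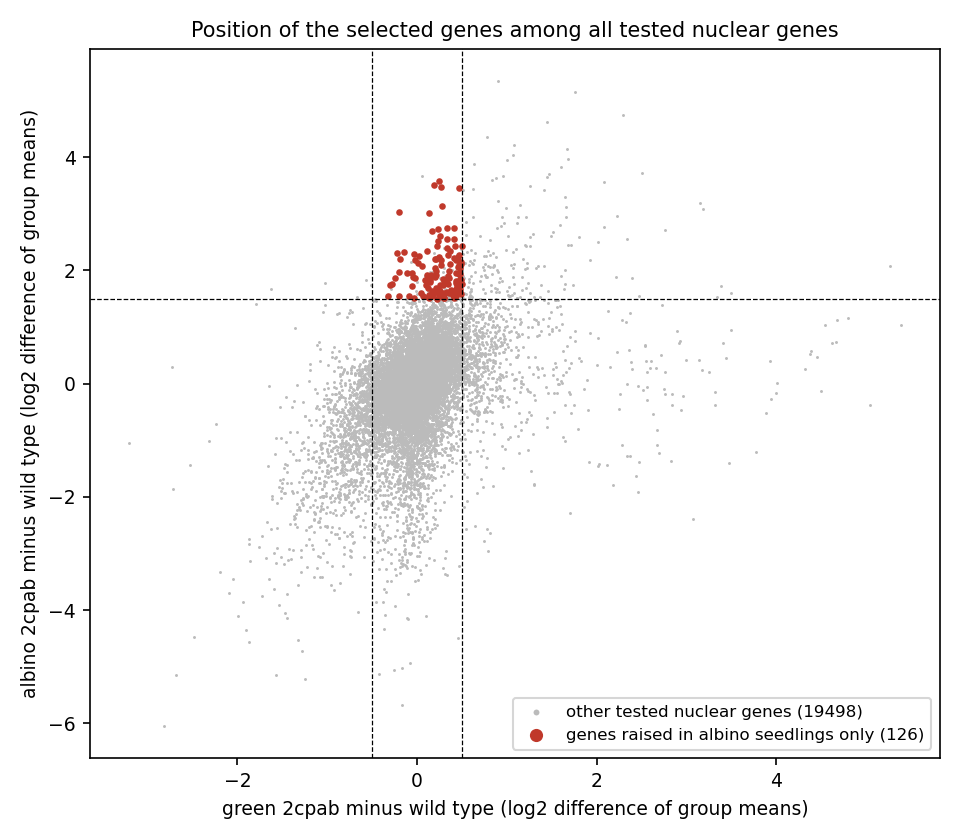
Each point is a nuclear gene, with its green minus wild type difference on the x axis and its albino minus wild type difference on the y axis, both as log2 differences of group means over 3 libraries each. The 126 selected genes (red) fill the field above 1.5 between the dashed lines at -0.5 and 0.5, most of them right of 0, and grey points are the other 19498 tested nuclear genes.

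Over all members the median albino minus wild type difference was 1.87, with a range of 1.503 to 3.58, and the median green minus wild type difference was 0.25, with a range of -0.32 to 0.50. Over the 19624 tested nuclear genes these medians were 0.07 and 0.02. The median member stood at 20.0 scaled FPKM in albino seedlings, 5.26 in green seedlings and 4.38 in the wild type. Of the summed scaled FPKM of a library, the members together held 1.25%, 1.34% and 1.40% in albino libraries, 0.371%, 0.251% and 0.276% in green libraries and 0.213%, 0.286% and 0.243% in wild-type libraries. The lowest albino library exceeded the highest of the other 6 libraries by a median of 1.19 on the log2 scale, by at least 1 for 91 members and by less than 0.2 for 2. Green means exceeded wild-type means for 107 of the 126 members (84.9%) and for 54.9% of tested nuclear genes. The albino and green differences share the wild-type libraries.

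The libraries were not alike within groups. 2CPA stood at 24.2, 21.4 and 25.4 in albino, 35.8, 267 and 256 in green and 989, 763 and 889.7 in wild-type libraries, so green replicate 1 lay far below the other green libraries. 2CPB had 1.82, 2.89 and 1.52 in albino, 7.21, 48.6 and 54.2 in green and 237, 174 and 188 in wild-type libraries. Green replicate 1 was also the highest green library for 95 of the 126 members (75.4%), against 36.1% of tested nuclear genes. It exceeded every wild-type library for 93 members (73.8%, against 31.3% of tested genes), whereas green replicates 2 and 3 did so for 41 and 42 members (32.5% and 33.3%, against 32.9% and 26.9%). It lay more than 0.5 above the wild-type mean for 55 members, and each of the other green libraries did so for 8. Median member values over the wild-type mean were 0.43, 0.12 and 0.18 in green replicates 1 to 3, and over tested genes they were 0.03, 0.01 and 0.01. Without green replicate 1 the rule took 150 genes, 123 of them among the 126.

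**Figure D2:**
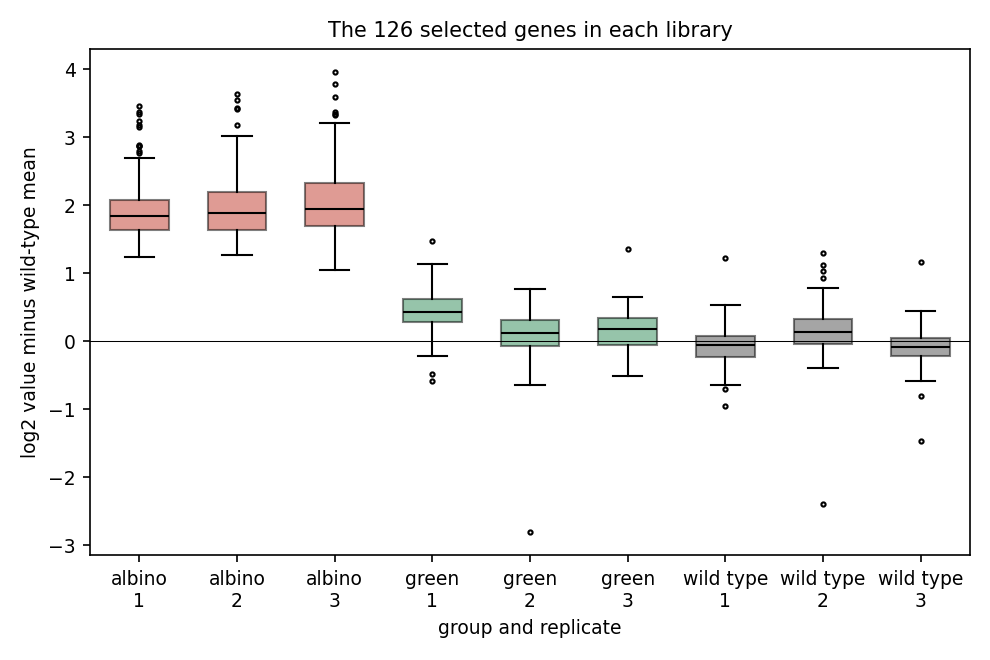
Boxes show, for each of the 9 libraries on the x axis, the log2 value of the 126 selected genes minus their wild-type mean (y axis); boxes span the quartiles, lines are medians, whiskers reach 1.5 times the box height and circles are genes beyond. Albino medians lie between 1.84 and 1.94, green replicate 1 at 0.43 lies above the other green libraries at 0.12 and 0.18, and wild-type replicate 2 at 0.13 lies above the other wild-type libraries.

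Wild-type replicate 2 was the highest wild-type library for 69 members (54.8%, against 37.8% of tested genes), and albino replicate 3 the highest albino library for 72 (57.1%, against 35%). Sums of root cell type markers were also highest among wild-type libraries in wild-type replicate 2. Summed levels of 6 root hair markers were 104 to 118 in albino, 48.3 to 75.8 in green and 58.3 to 129 in wild-type libraries, highest in wild-type replicate 2. The 7 endodermis markers, which include the selected gene CASP5, summed to 92.2 to 105 in albino, 57.4 to 63.5 in green and 59.1 to 107 in wild-type libraries, again with wild-type replicate 2 on top. The 5 guard cell markers summed to 37.4 to 38.4 in albino, 80.2 to 89.4 in green and 81.0 to 118 in wild-type libraries. The 8 green tissue markers summed to 3752 to 4635 in albino, 34420 to 55750 in green and 40560 to 52800 in wild-type libraries, and the 7 seed storage markers to 54.4 to 149 in albino, 85.5 to 99.2 in green and 9.70 to 29.3 in wild-type libraries. No marker was at 0 in all libraries of a group. The part of cell type shares in the members' levels was not tested. Without wild-type replicate 2 the rule took 127 genes, 93 of them among the 126.

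To read the pattern in libraries left out of the choice of genes, the rule was applied to 2 replicate numbers and its genes were read in the third. The rule had been set with earlier results of all these libraries known, and the replicates may be technical. The values below are thus a description and not an independent replication. The genes chosen without replicate 1 numbered 144, and in replicate 1 their median albino minus wild type difference was 1.91, with 77.1% at 1.5 or more against 2.26% of tested nuclear genes. For replicate 2 there were 114 genes with a median of 1.64, and for replicate 3 there were 116 with a median of 1.98. Of the genes chosen without replicates 2 and 3, 57% and 81.9% stood at 1.5 or more there, against 1.88% and 2.36% of tested genes. The albino library exceeded both others for 144 of 144, 114 of 114 and 114 of 116 of the chosen genes, and for 46.3%, 45.6% and 44.2% of tested genes in replicates 1 to 3. The closeness of green to wild-type libraries held less well. In replicate 1 the chosen genes had a median green minus wild type difference of 0.55, and 43.8% lay within 0.5, against 81.9% of tested genes. In replicates 2 and 3 the medians were -0.04 and 0.17, with 76.3% and 65.5% within 0.5, against 83.6% and 85.6% of tested genes.

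The members were sorted by known role after their values had been seen. The largest classes were immunity and cell death with 17 genes, wax, cutin, suberin and lipids with 17, glutathione, detoxification and redox enzymes with 12, and transcription factors with 11. Abscisic acid and osmotic stress genes and transporters had 8 each, and lectins, cell wall and glycine-rich proteins, and enzymes of amino acid, nitrogen and carbon metabolism had 7 each. Class medians of the albino minus wild type difference ran between 1.55 for 3 copper proteins and 2.40 for 3 RNA loci, and in every class except the copper proteins the median green minus wild type difference was above 0.

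**Figure D3:**
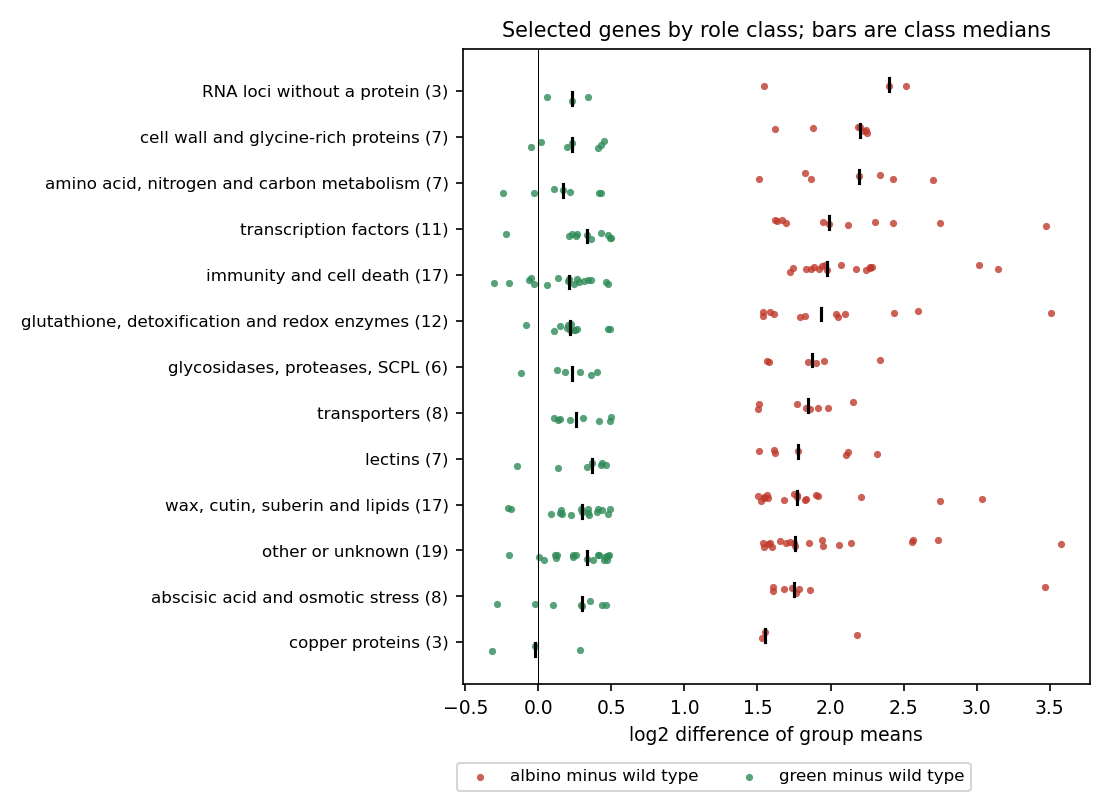
Each point is a selected gene, placed by role class (rows, with the number of genes) and by its log2 difference of group means from the wild type (x axis), red for albino and green for green seedlings; vertical bars are class medians. The single terpenoid gene has no row of its own; class medians for albino seedlings lie between 1.55 and 2.40 and those for green seedlings between -0.02 and 0.37.

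Among abscisic acid and osmotic stress genes, ARCK1 showed the largest difference. ARCK1 (AT4G11890, chromosome 4 from 7147865 to 7149942, plus strand, TAIR10.1), a cytosolic kinase that responds to abscisic acid and osmotic stress, had 13.2, 13.8 and 15.5 in albino, 1.58, 0.441 and 0.825 in green and 0.335, 0.386 and 0.39 in wild-type libraries, a difference of 3.46 in albino and 0.47 in green seedlings. The green libraries all lay above the wild type, and green replicate 1 was the highest of them. SIS, a salt-induced protein, had 20.1, 19.6 and 19.9 in albino, 6.0, 4.48 and 3.75 in green and 5.2, 4.82 and 4.26 in wild-type libraries, with green and wild-type libraries overlapping. P5CS1, the enzyme that commits glutamate to proline, had 36.4, 33.9 and 33.7 in albino, 14.8, 12.3 and 13.1 in green and 9.85, 14.2 and 8.71 in wild-type libraries. Its isoform P5CS2, whose transcript is 85.7% identical over the aligned stretch, had log2 differences from the wild type of -0.16 in albino and -0.42 in green seedlings. The class also holds the receptor PYL7, with 21.6, 17.9 and 24.8 in albino, 7.74, 5.06 and 5.98 in green and 5.72, 5.09 and 6.3 in wild-type libraries. HAI1, a clade A protein phosphatase that acts against abscisic acid signalling, had 4.87, 4.98 and 7.28 in albino, 1.64, 1.93 and 1.84 in green and 1.1, 1.44 and 0.719 in wild-type libraries. The albino minus wild type difference was 1.61 for AFP3 and 1.78 for LTI78, a dehydration-responsive protein. Thus the class holds a receptor, a phosphatase and a repressor of the same pathway together with its downstream genes.

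The rest of a list of 21 abscisic acid and dehydration genes was measured in 19 genes that are not members. Of these, 15 (78.9%) rose and 0 fell in albino seedlings (limma, Benjamini-Hochberg adjusted p under 0.05), where 23.4% of 19731 tested genes were higher and 20.1% lower than in the wild type. In green seedlings 6 of the 19 (31.6%) rose and 0 fell, where 3.71% of tested genes were higher and 5.16% lower. The largest were RAB18, a dehydrin, at 34 ± 6.6 in albino seedlings against 4.43 ± 1.04 in the wild type (SD, n = 3 each), with 2.69 ± 0.40 (adjusted p = 0.000476) in limma, and COR15A, a chloroplast protein of cold acclimation, with 2.19 ± 0.19 (adjusted p = 1.95e-05). The median over the 19 was 1.36 in albino and 0.52 in green seedlings, against 0.07 and 0.02 over tested genes. Between 14 and 17 of the 19 rose under the other scalings, and 0 fell. In green seedlings 3 instead of 6 rose without wild-type replicate 1 or 3, green replicate 1 or 2, or albino replicate 2.

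ELI3-2, a cinnamyl alcohol dehydrogenase-like enzyme first known from defence responses, led the glutathione, detoxification and redox enzymes. ELI3-2 (AT4G37990, chromosome 4 from 17855637 to 17857878, plus strand) was listed at 0 in all wild-type libraries and had 9.13, 9.63 and 12.8 in albino and 0.117, 0.184 and 0.132 in green libraries. Its relative ELI3-1, 84.2% identical over the aligned stretch, had a mean of 14.2 in albino, 21.9 in green and 20.2 in wild-type seedlings. GSTU4 (AT2G29460, chromosome 2 from 12626478 to 12627891, minus strand), a tau class glutathione transferase, had 12.3, 15.5 and 16.4 in albino, 2.15, 1.46 and 2.71 in green and 1.54, 1.84 and 1.38 in wild-type libraries. Green and wild-type libraries of GSTU4 overlapped, and all albino libraries lay far above both. GSTF7, of the phi class, had 53.4, 69.7 and 72.2 in albino, 21.3, 14.3 and 17.3 in green and 12.3, 15.7 and 15.1 in wild-type libraries. ERD9, a tau class enzyme, had 87.2, 85.6 and 100.5 in albino, 25, 35.6 and 30.1 in green and 26.9, 20.5 and 17.2 in wild-type libraries, with green and wild-type libraries overlapping. ERD9 and its neighbour GSTU18 overlap by 71 bases on the same strand, and GSTU18 fell with -1.95 ± 0.19 (adjusted p = 3.71e-05) in albino seedlings. PRXCB, a cell wall peroxidase of the oxidative burst, had 119, 139 and 125 in albino, 48.4, 30.9 and 28.8 in green and 29.2, 28.4 and 33.6 in wild-type libraries. ChlAKR, a chloroplast aldo-keto reductase that detoxifies reactive carbonyls, had log2 differences of 2.44 in albino and 0.22 in green seedlings.

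Of 21 tested tau class genes that are not members, 8 (38.1%) rose and 4 (19%) fell in albino seedlings, where 23.4% of all tested genes were higher and 20.1% lower. In green seedlings 1 rose and 1 fell (4.76% each), near the 3.71% and 5.16% of all tested genes. With all libraries scaled to a common sum, 14 rose and 1 fell in albino seedlings, and without wild-type replicate 1, wild-type replicate 3 or albino replicate 2 only 4 or 5 rose. Of 9 phi class genes, 4 (44.4%) rose and 1 (11.1%) fell in albino seedlings, led by GSTF6 with 3.23 ± 0.14 (adjusted p = 1.38e-06), at 199 ± 16.4 in albino seedlings against 20.4 ± 2.55 in the wild type. GSTF6 is the closest relative of GSTF7, with 86.3% identity, and at 0.91 in green seedlings it lay outside the green window. GSTF3, a member at 7.24, 9.22 and 9.28 in albino, 2.3, 1.85 and 2.01 in green and 2.95, 4.26 and 0 in wild-type libraries, shares 92.9% of its aligned bases with the abundant GSTF2. How reads common to both were assigned is not given, so the value of GSTF3 is uncertain. Its wild-type log2 values had an SD of 1.28. The wild-type values of 2.95 and 4.26 lie less than 1.5 below the albino libraries on the log2 scale. GSTF3 is therefore a member only through the 0 in wild-type replicate 3.

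Immunity and cell death genes included receptors, an enzyme of salicylate synthesis and inhibitors of pathogen or host hydrolases. SAG13 (AT2G29350, chromosome 2 from 12600914 to 12602556, plus strand), a short-chain dehydrogenase that marks senescence, was listed at 0 in all wild-type libraries and had 6.32, 8.08 and 9.38 in albino and 0, 0.246 and 0.426 in green libraries. Its relative AT2G29290, 90.2% identical over the aligned part, averaged 3.13 in albino, 25.2 in green and 27.3 in wild-type seedlings. AT1G43910, an AAA-type ATPase, had 52.5, 55.9 and 65.9 in albino, 8.96, 5.22 and 7.15 in green and 5.84, 6.64 and 6.35 in wild-type libraries, a difference of 3.02. PBS3, the enzyme that joins glutamate to isochorismate on the way to salicylate, had 4.34, 4.82 and 4.82 in albino, 0.324, 0 and 0.115 in green and 0.158, 0.0814 and 0.251 in wild-type libraries. None of the 6 green and wild-type values of PBS3 exceeded 0.324, and green replicate 2 was at 0. The albino minus wild type difference of the receptor-like kinase CRK13 was 2.25, that of the receptor-like protein RLP6 2.27, and that of the TIR domain gene AT1G57630 2.27. PGIP2, an inhibitor of fungal pectin-degrading enzymes, had 81.9, 79 and 107 in albino, 22, 15.5 and 19.6 in green and 26.6, 17 and 23 in wild-type libraries, with green and wild-type libraries overlapping. KTI1, a Kunitz trypsin inhibitor, had 109.5, 117 and 112 in albino, 43.3, 36.6 and 37.6 in green and 21.7, 41.8 and 30.3 in wild-type libraries, and its wild-type replicate 2 lay within the range of the green libraries.

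Related defence lists are read against the shares of all tested genes, which were 23.4% higher and 20.1% lower in albino seedlings and 3.71% higher and 5.16% lower in green seedlings. Besides PBS3, 10 salicylate and camalexin genes were tested, of which 3 (30%) rose and 2 (20%) fell in albino seedlings, close to those shares, and 0 rose and 2 fell in green seedlings. The isochorismate synthase EDS16 rose with 1.22 ± 0.14 (adjusted p = 8.3e-05), and WRKY38 fell with -2.49 ± 0.21 (adjusted p = 1.81e-05). Of 25 cysteine-rich receptor-like kinases besides CRK13, 6 (24%) rose and 8 (32%) fell in albino seedlings, the share that rose being near that of all tested genes, with CRK21 at -2.45 ± 0.17 (adjusted p = 5.86e-06); with a common sum the balance flipped to 9 higher and 6 lower. The list of singlet oxygen and general oxidative response genes holds AT3G28580 and AT1G57630, both members. The 7 other tested genes of that list were 0 higher and 6 (85.7%) lower in albino seedlings, and 0 higher and 2 lower in green seedlings. BAP1, an inhibitor of cell death, stood at 7.47 ± 4.71 in albino seedlings against 59.6 ± 16.6 in the wild type and fell with -2.94 ± 0.35 (adjusted p = 0.000122). The count of 6 lower was the same under every scaling tried. Of 14 senescence genes besides SAG13, 8 (57.1%) rose and 3 (21.4%) fell in albino seedlings, and 1 rose and 2 fell in green seedlings. SEN1, a dark- and senescence-induced gene, rose with 1.29 ± 0.29 (adjusted p = 0.00574), and WRKY53 fell with -1.58 ± 0.25 (adjusted p = 0.000636).

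The transcription factors selected were 3 AP2/ERF proteins, 3 MYB, 2 WRKY and 1 each of the bHLH, homeobox and GRAS families. ERF53 (AT2G20880, chromosome 2 from 8985959 to 8987302, plus strand), a drought-responsive AP2/ERF activator, had 10.2, 11.6 and 9.13 in albino, 0.195, 0.072 and 0.412 in green and 0, 0.0413 and 0 in wild-type libraries. Outside the albino group it did not exceed 0.412, and 2 wild-type libraries were at 0. ESE3 (AT5G25190, chromosome 5 from 8706745 to 8707885, minus strand), an ethylene- and salt-inducible factor, had 27.6, 29.8 and 35.7 in albino, 5.89, 4.05 and 5.08 in green and 3.68, 4.22 and 3.33 in wild-type libraries, a difference of 2.75. MYB59 had 49.3, 47.4 and 46.5 in albino, 14.6, 13 and 8.73 in green and 6.77, 10.4 and 7.43 in wild-type libraries, with green replicates 1 and 2 above every wild-type library. HEC1, a bHLH factor of carpel and meristem development, had 21.3, 30.2 and 27.5 in albino, 5.15, 2.53 and 3.8 in green and 3.97, 5.57 and 4.04 in wild-type libraries. WRKY28 and WRKY45 had log2 differences of 1.69 and 1.63 in albino seedlings. Of 53 tested ERF and AP2 factors besides the members, 12 (22.6%) rose and 19 (35.8%) fell in albino seedlings, against 23.4% higher and 20.1% lower among all tested genes, and DDF1 fell with -5.15 ± 0.47 (adjusted p = 2.4e-05). Of 46 WRKY factors, 11 (23.9%) rose and 12 (26.1%) fell in albino seedlings, near the shares of all tested genes, with WRKY40 at 16.4 ± 8.1 in albino seedlings against 375 ± 25.2 in the wild type and -4.53 ± 0.30 (adjusted p = 4.86e-06). With a common sum the balance flipped in both families, to 19 higher and 16 lower for ERF and AP2 factors and 27 higher and 9 lower for WRKY factors.

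**Figure D4:**
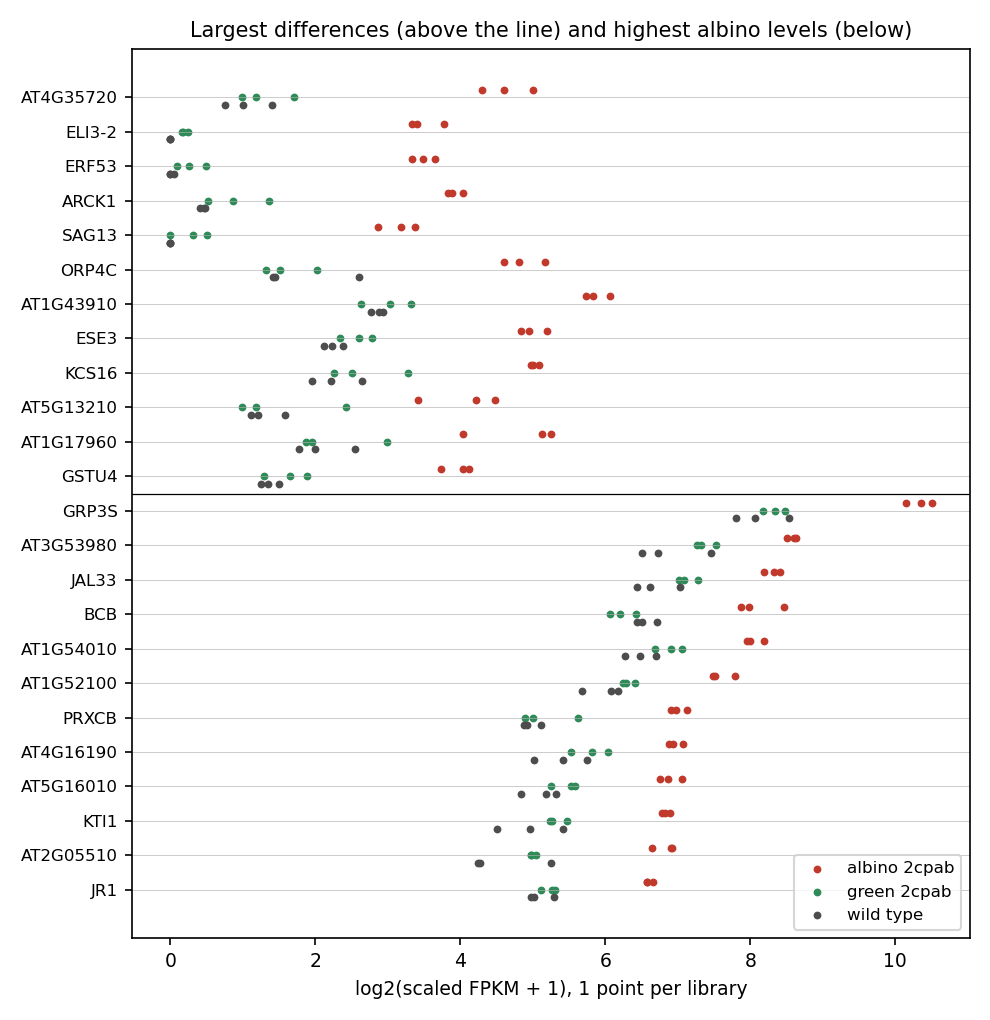
Points are single libraries, 3 per group, on a log2(scaled FPKM + 1) axis (x), for the 12 genes with the largest albino minus wild type difference (upper rows) and the 12 with the highest albino mean (lower rows). Albino points (red) lie right of all green and wild-type points in every row, as the rule requires.

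Wax, cutin, suberin and lipid genes covered chain elongation, reduction and export. CASP5, a gene of the Casparian strip and not of lipid synthesis, was placed with them. ORP4C (AT5G57240, chromosome 5 from 23192872 to 23195476, plus strand), an oxysterol-binding protein relative, had 23.2, 27.1 and 35.1 in albino, 3.08, 1.86 and 1.49 in green and 1.74, 5.08 and 1.68 in wild-type libraries. Here wild-type replicate 2 lay above all green libraries. KCS16 (AT4G34250, chromosome 4 from 16394600 to 16396703, plus strand), which elongates very long chain fatty acids, had 30.4, 31.1 and 32.8 in albino, 8.69, 3.79 and 4.69 in green and 5.27, 2.87 and 3.64 in wild-type libraries, a difference of 2.75. FAR1, a fatty acyl reductase that makes the alcohols of suberin, had 40.05, 44 and 56 in albino, 9.93, 6.07 and 8.38 in green and 7.07, 12.9 and 8.56 in wild-type libraries. ABCG6, a suberin exporter, had 14, 17.3 and 7.93 in albino, 4.7, 3.67 and 4.64 in green and 2.24, 5.45 and 1.6 in wild-type libraries. CASP5, a membrane scaffold of the Casparian strip, had 10.4, 14.9 and 11.9 in albino, 4.71, 3.21 and 4.52 in green and 1.91, 4.86 and 4.53 in wild-type libraries. For ABCG6 and CASP5 wild-type replicate 2 was the highest wild-type library, the one with the highest sums of root markers. The lipid transfer protein AT3G53980 reached 364, 394 and 386 in albino, 183, 153 and 159 in green and 89.8, 175 and 105 in wild-type libraries. The GDSL lipase AT1G54010 had 256, 291 and 248 in albino, 132, 119 and 102 in green and 87.9, 103 and 76 in wild-type libraries. AT5G16010, whose promoter is printed above, had 107, 116 and 132 in albino, 45.2, 37.1 and 47.1 in green and 39.1, 27.7 and 35.4 in wild-type libraries. Of 15 other 3-ketoacyl-CoA synthases tested, 1 (6.67%) rose and 9 (60%) fell in albino seedlings, against 23.4% higher and 20.1% lower among all tested genes, led by KCS13 with -1.98 ± 0.13 (adjusted p = 4.34e-06) and KCS14 with -1.85 ± 0.14 (adjusted p = 1.05e-05); with a common sum 4 rose and 5 fell. Of 47 other GDSL lipases, 12 (25.5%) rose and 10 (21.3%) fell in albino seedlings, near the shares of all tested genes, and with median-of-ratios scaling 11 rose and 13 fell. The closest relative of AT1G54010, GLL22, with 89.2% identity, had log2 differences of -0.08 in albino and -0.67 in green seedlings.

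The lectins comprised 6 jacalin-type genes and the legume lectin AT5G03350. Jacalin-type lectins bind sugars and several accompany myrosinases, the enzymes that activate glucosinolate defences. AT1G33790 (chromosome 1 from 12256474 to 12260638, plus strand) showed the largest difference, with 60.8, 61.7 and 66.1 in albino, 16.1, 9.13 and 7.96 in green and 12.5, 11.9 and 11 in wild-type libraries. JAL33 (chromosome 3 from 5588292 to 5590085, plus strand) was the most abundant, with 319, 292 and 340.1 in albino, 154, 135 and 128 in green and 96.7, 129.6 and 86 in wild-type libraries. JR1, a jasmonate-responsive lectin separated from JAL33 by 1 gene, had 94.1, 94.6 and 100.3 in albino, 38.7, 33.6 and 37.6 in green and 30.3, 38.2 and 31.3 in wild-type libraries. AT1G52100, a mannose-binding lectin, had 182, 178 and 220.3 in albino, 75.1, 83.7 and 77.2 in green and 71.4, 66.7 and 50.3 in wild-type libraries. AT5G03350 had 13.1, 22.9 and 21.3 in albino, 4.81, 4.29 and 5.35 in green and 5.03, 2.79 and 2.99 in wild-type libraries. AT1G52000 and MBP1, a myrosinase-binding protein, are parted by 1 gene and had log2 differences of 2.103 and 1.78 in albino seedlings.

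Genes within 1 lectin cluster differed in direction. Of 21 tested jacalin-type genes that are not members, 7 (33.3%) rose and 4 (19%) fell in albino seedlings, against 23.4% higher and 20.1% lower among all tested genes. Their median was 0.10, near the 0.07 of tested genes, and 0 rose and 1 fell in green seedlings. Taking out the 6 members, which the rule chose for high albino values, lowers that median, so it does not describe the whole family. JAL23 rose with 1.98 ± 0.14 (adjusted p = 6.83e-06), and AT1G52120, a gene near AT1G52100, fell with -1.76 ± 0.18 (adjusted p = 4.12e-05). MBP2, the gene between AT1G52000 and MBP1, had a log2 difference of 1.57, whereas AT1G52050, AT1G52060 and AT1G52070 on the other side of MBP1 had -0.57, -0.67 and -0.72. JAL34, between JAL33 and JR1, had 0.62, and MLP-300B, beside JAL33, -0.28. These are albino minus wild type differences. In green seedlings AT1G52050, AT1G52060 and AT1G52070 lay further below the wild type, at -1.25, -1.04 and -1.18, as did MLP-300B at -1.04. MBP2 had 0.29 and JAL34 -0.185 in green seedlings. These neighbours were named after their values were seen.

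**Figure D5:**
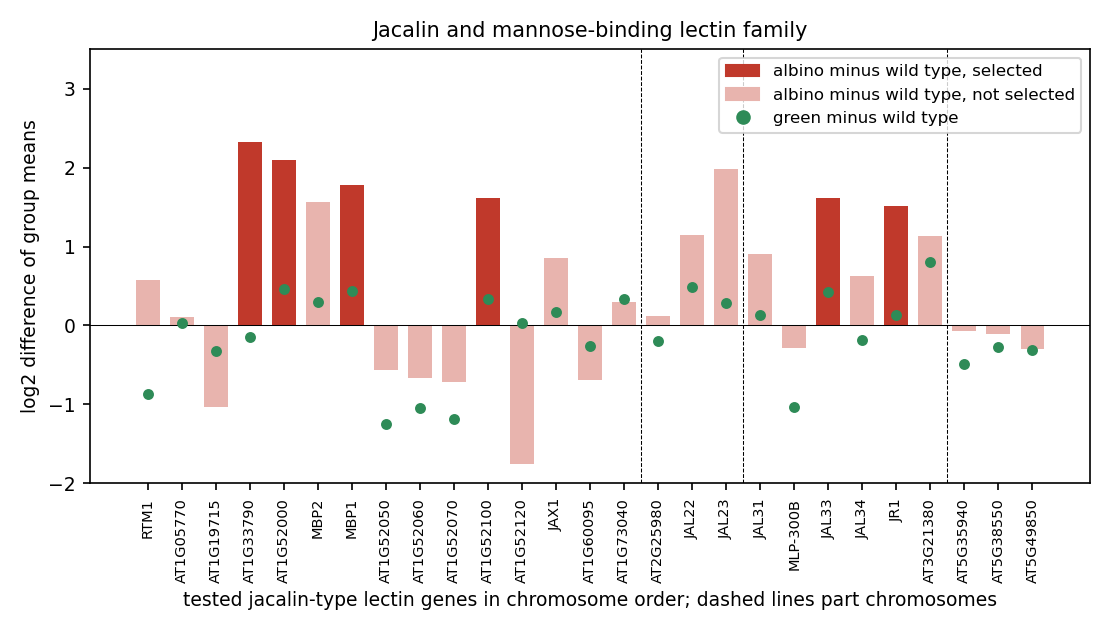
Bars show the albino minus wild type log2 difference of the 27 tested jacalin-type lectin genes in chromosome order, dark for the 6 selected genes and light for the 21 others, and green dots show the green minus wild type difference. Selected genes stand at 1.51 to 2.32 beside neighbours that range down to -1.76.

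Cell wall and glycine-rich proteins held the most abundant member. GRP3S (AT2G05380, chromosome 2 from 1966610 to 1968142, plus strand), a secreted glycine-rich protein, had 1137, 1309.9 and 1449 in albino, 356, 324 and 289 in green and 223, 371 and 267 in wild-type libraries. AT2G05510, a glycine-rich protein of the same chromosome region, had 119, 98.7 and 120.3 in albino, 30.6, 30.5 and 32 in green and 18, 37.2 and 18.4 in wild-type libraries. In both genes wild-type replicate 2 was the highest wild-type library and lay above all green libraries. AT4G33610 and AT1G55990, glycine-rich proteins with 82.8% identity, followed each other from library to library. AT4G33610 had 52.8, 72.4 and 31.4 in albino, 16, 11.8 and 13.2 in green and 6.18, 22.3 and 6.24 in wild-type libraries. AT1G55990 had 63.5, 75 and 30.7 in albino, 18.3, 12.5 and 14.2 in green and 7.42, 27.9 and 5.73 in wild-type libraries. Both were lowest in replicate 3 of the albino group and highest in replicate 2 of the wild type. The pectin methylesterase AT3G43270 varied less, with 29.8, 26.8 and 34.5 in albino, 6.48, 5.05 and 5.49 in green and 5.56, 5.34 and 5.78 in wild-type libraries. Of 38 other glycine-rich protein genes tested, 8 (21.1%) rose and 13 (34.2%) fell in albino seedlings, against 23.4% higher and 20.1% lower among all tested genes, and AT5G28630 fell with -3.57 ± 0.17 (adjusted p = 1.58e-06). The balance flipped to 20 higher and 6 lower with a common sum and 11 higher and 8 lower with quantile normalization, and without wild-type replicate 1 or any 1 of the albino libraries 6 to 8 fell.

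Enzymes of amino acid, nitrogen and carbon metabolism included a nitrilase and a lyase that splits methionine. NIT2, a nitrilase, had 41.9, 53.1 and 53.7 in albino, 14.6, 12.5 and 8.27 in green and 7.02, 12.8 and 6.4 in wild-type libraries. MGL, the methionine gamma-lyase that breaks down methionine, had 41.7, 44.5 and 50.6 in albino, 13.5, 7.84 and 6.57 in green and 6.31, 12 and 7.13 in wild-type libraries. AT1G17960, annotated as a threonyl-tRNA synthetase, had 37.3, 34 and 15.4 in albino, 6.97, 2.87 and 2.67 in green and 2.42, 4.86 and 2.98 in wild-type libraries. Its albino replicate 3 lay well under the other albino libraries, and green replicate 1 was the highest of the 6 other libraries. The albino minus wild type difference was 1.87 for GAD4, a glutamate decarboxylase, and 1.51 for PPDK, which interconverts pyruvate and phosphoenolpyruvate. Of 13 other amino acid catabolism and nitrogen recycling genes tested, 8 (61.5%) rose and 0 fell in albino seedlings, against 23.4% higher and 20.1% lower among all tested genes, and 0 rose and 3 fell in green seedlings. BCAT-2, a branched-chain aminotransferase, rose with 1.84 ± 0.29 (adjusted p = 0.000772), and AT4G33150, the bifunctional enzyme of lysine breakdown, with 1.03 ± 0.12 (adjusted p = 0.000135). In this list quantile normalization gave 1 gene lower in albino seedlings, and the count lower in green seedlings was 1 without wild-type replicate 3 and 5 without green replicate 1.

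The transporters among the members carry nitrate, sulphate, calcium, water and organic compounds. NRT1.7, which loads nitrate from old leaves into the phloem, had 51.3, 51 and 60.5 in albino, 20.1, 15.7 and 14 in green and 9.39, 14.2 and 11 in wild-type libraries. CAX7, a cation exchanger, had 8.74, 9.59 and 9.0 in albino, 2.72, 1.74 and 1.55 in green and 1.93, 1.16 and 1.63 in wild-type libraries. The vacuolar exchanger CAX3 had log2 differences of 1.77 in albino and 0.50 in green seedlings, at the edge of the green window, while its relative CAX1 had -0.06 and 0.40. AT2G04050, a MATE efflux carrier, spread widely, with 85.8, 75.8 and 55.7 in albino, 37.9, 14.9 and 13.3 in green and 8.89, 38.2 and 17.3 in wild-type libraries. Green replicate 1 and wild-type replicate 2 lay far above the other libraries of their groups for this gene.

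Copper proteins were the 1 class whose median green minus wild type difference was under 0. That median, -0.02 over 3 genes, is the value of AT4G39830, and the class ran from -0.32 to 0.28. The copper enzymes CSD1 and CSD2, which the rule leaves out, had 0.494 and 0.001. BCB, a blue copper protein of the cell surface, had 252, 233 and 351 in albino, 66.2, 72.6 and 85.1 in green and 89.99, 85.4 and 104 in wild-type libraries, with all green libraries below all wild-type libraries. AT4G39830, annotated in the cupredoxin superfamily, had 9.76, 9.81 and 12.2 in albino, 2.02, 1.39 and 1.18 in green and 1.48, 1.62 and 1.53 in wild-type libraries. CCS, the chaperone that hands copper to CSD1 and CSD2, had 63, 55.8 and 53.1 in albino, 26.4, 24.9 and 19.7 in green and 16.9, 23.5 and 17.7 in wild-type libraries. BGLU11, BGLU40 and BGLU25, which belong to the beta-glucosidases that split glucosides, had log2 differences of 2.34, 1.95 and 1.90 in albino seedlings. BGLU11 had 46.1, 47 and 46 in albino, 15.5, 9.13 and 9.42 in green and 4.75, 11.3 and 10.6 in wild-type libraries. Of 24 other tested beta-glucosidases, 11 (45.8%) rose and 3 (12.5%) fell in albino seedlings, against 23.4% higher and 20.1% lower among all tested genes, led by BGLU18, which frees abscisic acid from its glucose ester, with 2.95 ± 0.16 (adjusted p = 2.37e-06), at 98.1 ± 18.9 in albino seedlings against 11.8 ± 2.44 in the wild type. The cysteine protease AT4G16190 had 117, 121 and 134 in albino, 64.9, 55.4 and 45.2 in green and 41.8, 52.6 and 31.4 in wild-type libraries, and its relative RD19 had log2 differences of 1.23 in albino and 0.36 in green seedlings.

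Genes of unknown role included the largest difference of all. AT4G35720 (chromosome 4 from 16927730 to 16929224, plus strand), a DUF241 domain protein, had 18.7, 23.2 and 31.2 in albino, 2.26, 1.28 and 0.996 in green and 0.689, 1.66 and 1.01 in wild-type libraries, a difference of 3.58 in albino and 0.24 in green seedlings. AT5G13210 had 21.3, 17.6 and 9.64 in albino, 4.38, 1.28 and 0.99 in green and 1.15, 2.0 and 1.3 in wild-type libraries. Green replicate 1 of AT5G13210 lay above every wild-type library, and albino replicate 3 was the lowest of its group. The 19 genes placed as other or unknown had a median of 1.76 in albino and 0.34 in green seedlings.

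The values of several members are uncertain because reads may be shared. PGN had 65.9, 60.7 and 67.3 in albino, 40.5, 1.12 and 36.9 in green and 33.9, 1.82 and 32.4 in wild-type libraries. The opposite-strand gene SVB, which overlaps PGN by 1123 bases, was listed at 0 in all but green replicate 2 and wild-type replicate 2, where it had 130.0 and 121. The low values of PGN thus fell in the 2 libraries in which SVB had a value. Its albino minus wild type difference of 2.14 rests on wild-type replicate 2, and its wild-type log2 values had an SD of 2.08. The other wild-type values, 33.9 and 32.4, lie less than 1.5 below the albino libraries on the log2 scale. PGN is therefore a member only through a value that may reflect how reads were assigned, which was not tested. AT3G28290 and AT3G28300, both named AT14A, have identical transcripts and near-equal values, so they are not independent measurements. The microRNA loci MIR5642a and MIR5642b are 98.4% identical. MIR5642a had 14.2, 8.56 and 13 in albino, 2.06, 1.94 and 2.09 in green and 1.88, 1.18 and 1.2 in wild-type libraries. MIR5642b had 12.3, 6.55 and 10.4 in albino, 1.24, 0.828 and 1.41 in green and 1.15, 0.842 and 0.543 in wild-type libraries. MIR5642b lies over 99.2% of its length within the protein-coding gene AT2G01008 on the same strand, which averaged 3.3 in albino, 1.32 in green and 0.771 in wild-type seedlings. MIR5642a shares 92 bases with the member AT3G41762 on the opposite strand and 92 with the noncoding RNA AT3G06325 on its own strand. The values of these loci may therefore hold reads of each other or of the overlapping genes. These are poly(A) RNA values of the loci, not levels of a mature microRNA. In all, 7 members had another transcript at least 90% identical over at least 50% of their length, and 29 overlapped another annotated gene, 25 on the opposite and 5 on the same strand.

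The median transcript of the protein-coding members had 1522 bases and 3 exons, against 1721 bases and 4 exons for tested genes, and 19.5% had a single exon, against 15.3%. In position, 5 pairs, 10 members in all, lay within 5 genes of each other. Replicates spread more in members than in tested genes, with a median SD on the log2 scale of 0.17 in albino, 0.23 in green and 0.25 in wild-type libraries, against 0.10, 0.15 and 0.16. That comparison was not matched for level, and the members were chosen by the same values. Against green seedlings, 18.5% of all tested genes were higher and 17.7% lower in albino seedlings. Members had albino means at least 1.09 above their green means, but the rule's limits on both means set most of that gap in advance.

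A list of DNA damage response genes and cell cycle inhibitors holds no member. In it, 10 (71.4%) of its 14 tested genes rose and 0 fell in albino seedlings, against 23.4% higher and 20.1% lower among all tested genes. In green seedlings 4 (28.6%) rose and 0 fell, against 3.71% higher and 5.16% lower. GMI1, an SMC-like protein of DNA repair, stood at 11.8 ± 1.73 in albino seedlings against 2.04 ± 0.0565 in the wild type and rose with 2.06 ± 0.17 (adjusted p = 1.49e-05), and NAC044, a factor of the DNA damage checkpoint, with 2.05 ± 0.24 (adjusted p = 0.000116). In green seedlings 2 rose without wild-type replicate 3 or green replicate 2. Of 6 genes of the mitochondrial dysfunction response, none of them a member, 5 rose and 1 fell in albino seedlings and 3 rose and 0 fell in green seedlings. AT2G21640 rose in albino seedlings with 2.96 ± 0.22 (adjusted p = 7.9e-06), and NAC13, a regulator of that response, with 1.67 ± 0.15 (adjusted p = 2.49e-05). Both also stood higher in every green library than in every wild-type library. AT2G21640 had 36.5, 46.1 and 42.8 in green and 5.57, 12.3 and 7.8 in wild-type libraries. NAC13 had 22.05, 19.7 and 22.8 in albino, 24.1, 22.1 and 17.5 in green and 4.69, 7.2 and 6.6 in wild-type libraries.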

How the data were processed

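Per the labels' protocols, a SurePrep kit gave the RNA and poly(A) libraries were made with a stranded Illumina mRNA ligation kit. Per the submitters' processing notes, FastQC, HISAT2, StringTie and the TAIR10 genome were used, with no versions given. The authors deposited log2 values for 32833 genes in 9 libraries. Read from the values, they equal log2(scaled FPKM + 1) and share a 75th percentile of 3.70 across libraries, and were used as they are, although the plan had assumed FPKM. Levels were obtained by undoing the log2. No read counts were used, so depth is unknown. Names, positions and promoters came from the TAIR10.1 RefSeq annotation, which matched 32548 nuclear genes. One promoter sequence is not reported here.

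The members and gene lists were chosen with earlier results of these data known, and role classes and annotation families after values were seen. Genes left out as flavonoid, glyoxylate or PR genes were those of hand-written lists. Members were described without a test. Genes of the lists that are not members were tested with limma on log2 values of all 9 libraries (19731 genes that reached a scaled FPKM of 1 in 3 or more libraries, a mean per group, moderated variances with a trend), with Benjamini-Hochberg adjusted p under 0.05 in each comparison; errors beside limma differences are standard errors. Members were taken out of the lists but not out of all tested genes. This lowers the share that rose in albino seedlings in lists that hold members. The code was tested on simulated data. The main fit did not pair samples by replicate number. Deviations from group means correlated between -0.15 and 0.28 for same-numbered libraries and between -0.355 and 0.151 for differently numbered ones. The highest values were those of green and wild-type replicates 2 (0.281) and 3 (0.267), and a batch shared by these libraries was not tested. Named members are the 12 with the largest difference, the 12 with the highest albino mean, the first 2 of each role class and those nearest the threshold; from each list up to 2 other genes were named. Other members and nearest relatives (blastn 2.17.0 on annotated transcripts) were named after their values were seen. Software was R 4.3.3, limma 3.58.1, Python 3.11.15, numpy 2.4.6, pandas 2.3.3 and matplotlib 3.10.9. Alternatives changed the rule's limits, pseudocount, scaling, filter, fit and libraries.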

Additional observations from a re-analysis of the deposited data

How the results depend on the processing

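The number of selected genes follows its limits. It was 126 as stated, 421 with an albino minus wild type difference of at least 1, 46 at 2, 59 and 198 with green windows of 0.25 and 1, and 76 with an albino mean of at least 4. A pseudocount of 5 gave 62 genes, 48 of them among the 126, and a common sum of all libraries gave 359, 122 of them among the 126. Median-of-ratios scaling gave 115 (109 shared), quantile normalization 173 (120 shared) and a pseudocount of 0.1 gave 119 (87 shared). Leaving out 1 library or replicate number gave 111 to 150, with 82 shared without replicate 2, 93 without wild-type replicate 2 and most without green replicate 1. The median albino minus wild type difference of the members, 1.87, was 2.18 and 1.36 with pseudocounts of 0.1 and 5, 1.81 with median of ratios, 2.28 with a common sum and 1.94 with quantile normalization. For the genes chosen without 1 replicate number (114 to 144 genes, not all of them members), the median read in that number ran between 1.64 and 1.98. The common sum moves the median of all tested genes in albino seedlings to 0.48, against 0.07 with the deposited scaling. Under it 12255 genes were higher in albino than wild-type seedlings (4613 otherwise), and 11916 in albino than green seedlings (3648 otherwise). Leaving out libraries gave 2673 to 4741 and 1618 to 3884 of these genes, and 230 to 707 higher in green than wild-type seedlings, where all libraries gave 733 and a fit of only the 6 libraries compared gave 431; the cause was not tested. With a replicate block these counts were 4611, 3596 and 752, and the block changed no count by more than 1.5 times. Of 440 recomputed differences of named members, 350 stayed within 1 SD, 90 moved and 0 reversed. Depth was not known, so its limit on weak genes cannot be given.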

Other observations

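Counts of these lists stand beside 23.4% higher and 20.1% lower among all tested genes in albino seedlings and 3.71% and 5.16% in green seedlings. Of 14 jasmonate genes, 7 (50%) rose and 7 (50%) fell in albino seedlings, and 2 rose and 5 fell in green seedlings (3 fell without wild-type replicate 3). LOX4, a lipoxygenase of jasmonate synthesis, fell with -3.90 ± 0.29 (adjusted p = 8.12e-06), whereas VSP2, a storage protein induced by jasmonate, was not among the 2 largest by the naming rule and is named after its value was seen, with 2.79 ± 0.18 (adjusted p = 4.43e-06). The jasmonate-responsive lectin JR1 is a member, while LOX3, the second largest, fell with -3.06 ± 0.27 (adjusted p = 2.11e-05) in albino seedlings. Of 13 sugar transporters and wall invertases, 4 (30.8%) rose and 4 (30.8%) fell in albino seedlings, with SWEET2 at -1.51 ± 0.35 (adjusted p = 0.00686) and MSS1 at 1.29 ± 0.19 (adjusted p = 0.000427). Of 7 phosphate starvation genes, 4 rose and 2 fell in albino seedlings and 3 rose and 0 fell in green seedlings (1 rose without green replicate 1 or 3). SPX1, a phosphate sensor, stood at 28.9 ± 5.94 in albino seedlings against 4.14 ± 1.81 in the wild type, with 2.60 ± 0.32 (adjusted p = 0.000157), and the acid phosphatase PAP17 rose with 2.02 ± 0.19 (adjusted p = 3.13e-05). Of 5 genes of root triterpene clusters, 2 rose and 0 fell in albino seedlings and 0 changed in green seedlings by limma, led by CYP708A2 with 0.96 ± 0.22 (adjusted p = 0.00665); the terpenoid cyclase AT5G48110, a member, had 1.64. All p-values here are limma values with Benjamini-Hochberg adjustment, n = 3 libraries per group.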
